A study of Mus musculus with 24 samples.

Results

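The comparison described here is the last step of a stepwise series of mutations in mouse embryonic fibroblasts (MEF): the line 6KO2, in which all 6 genes for H3K9 methyltransferases (KMT) carry mutations, was set against its parent, the line E1E2 G9Gl, in which Suv39h1 and Suv39h2 had not yet been targeted. Its members were the 3 libraries labelled with the 6-gene genotype Eset1/Eset2/G9a/Glp/Suv39h1/Suv39h2 and the 3 libraries labelled Eset1/Eset2/G9a/Glp, so 6 of the 24 RNA-seq libraries of the series and 2 of its 8 conditions. Total RNA was sequenced, and reads were counted over genes and over repeat elements. The other conditions were WT, E1, E2, E1E2, E1 S1S2 (Eset1, Suv39h1 and Suv39h2) and 6KO1, which carries mutations in the same 6 genes in another order.

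Both lines descend from MEF with floxed Eset1 alleles and a tamoxifen-inducible CreERT2 recombinase under the pCAGGS promoter. These cells without tamoxifen are the WT condition. 4-hydroxytamoxifen (4-OHT, 1 uM) deletes Eset1, and the cultures of both lines had received it. By their sample titles, E1, E1E2, E1 S1S2 and 6KO1 had received 4-OHT as well, and E2 had not. Eset2, G9a and Glp, and in 6KO2 also Suv39h1 and Suv39h2, were disrupted by frameshift mutations made with CRISPR/Cas9. Each line is 1 clone, and 6KO2 was isolated after transfection of the E1E2 G9Gl clone, so that the genotype and the clone cannot be told apart in any value below. The study's methods call the 3 libraries of a line biological replicates, without saying how they were grown apart, so that p-values measure the spread between samples of 1 clone.

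The deposited tables held 24736829 to 29777651 counts per library in E1E2 G9Gl and 27298161 to 30921742 in 6KO2, of which repeat elements took 20.8% to 21.2% and 18.1% to 18.8%. Levels are given as normalized counts, that is counts divided by a library factor computed from genes, and are not scaled by length. Fold changes are log2 values of 6KO2 over E1E2 G9Gl. A feature was called higher or lower at a log2 change of at least 1 either way and an adjusted p of at most 0.01 by the edgeR quasi-likelihood test with Benjamini-Hochberg adjustment over all features tested. One element set libraries apart before any comparison: U2, the repeat annotation of the U2 spliceosomal RNA, had 39913, 40227 and 58822 normalized counts in 6KO2, 38593 in E2 replicate 2 and 39380 in E1E2 replicate 2, while the other 19 libraries held 148 to 235. MER34B-int, an LTR element, was high in 4 of these libraries (553 to 714 in 6KO2, 571 in E1E2 replicate 2) and at 3.1 to 49.6 in the other 20. The overall counts of elements called are therefore given with and without these 2 elements, and those of the LTR class and the ERV1 family with and without MER34B-int. The snRNA family, which holds U2, is given only with it.

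Methylation of lysine 9 of histone H3 marks silent chromatin. In mouse cells Suv39h1 and Suv39h2 (SUV39H1 and SUV39H2) deposit most H3K9me3 at the pericentric major satellite repeats, Eset1/Setdb1 is the enzyme of retrotransposon silencing and of imprinted and zinc finger gene clusters, and G9a/Ehmt2 with its partner Glp/Ehmt1 makes H3K9me1 and H3K9me2 over euchromatic regions. HP1 proteins, encoded by Cbx1, Cbx3 and Cbx5, bind the methylated lysine. Loss of these marks in fibroblasts is known for transcription of endogenous retroviruses and satellites, whose RNA can be sensed by the innate immune receptors of the cell.

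The targeted genes were read first. Suv39h1 (chrX:8061171-8074760, minus strand, GRCm38) had 2063, 1958 and 2023 normalized counts in the parent and 1599, 1608 and 1570 in 6KO2. The groups did not overlap, and the log2 change was -0.34 (SE 0.0468, edgeR adjusted p = 1.7e-06), below the size needed for a call. Suv39h2 (chr2:3455815-3475031, minus strand) had 370, 357 and 355 normalized counts in the parent and 475, 556 and 511 in 6KO2, a log2 change of 0.51 (SE 0.082, adjusted p = 1.4e-05). Suv39h2 RNA was thus higher in the libraries labelled as its mutant. In E1 S1S2 against E1, the log2 change was -1.22 for Suv39h1 and 0.87 for Suv39h2. A frameshift need not lower the RNA, and the counts over whole genes do not check the label at the mutated site. The study reports western blots in which the products of the mutated genes were absent.

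Of the other 4 KMT genes, only G9a/Ehmt2 (chr17:34898469-34914052, plus strand) was called. Its values were 1031, 937 and 1041 normalized counts in the parent and 2167, 2292 and 2090 in 6KO2, a log2 change of 1.12 (SE 0.0925, adjusted p = 5.2e-10), against a mean of 3228 in WT. Glp/Ehmt1 gave 1046, 1031 and 1000 in the parent and 1365, 1444 and 1404 in 6KO2 (log2 change 0.45). Eset1/Setdb1 gave 675, 657 and 679 against 817, 760 and 793 (log2 change 0.24), with a WT mean of 1529, and Setdb2 gave 269, 266 and 240 against 278, 272 and 314 (log2 change 0.16). Setdb1, Suv39h1 and Suv39h2 each overlap a gene on the opposite strand, and whether counting used the strand of the stranded libraries is not given in the sources used here.

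The chromatin proteins that accompany these enzymes moved less, with one pair as the exception. The HP1 genes were not called: Cbx1 had a log2 change of 0.14, Cbx3 of -0.20 and Cbx5 of 0.04. Hmga2 (chr10:120361275-120476469, minus strand), an architectural protein of AT-rich DNA, went from 822, 792 and 868 to 3807, 3340 and 3855 normalized counts, a log2 rise of 2.15 (SE 0.115, adjusted p = 2.6e-13). Its relative Hmga1 (chr17:27556497-27563674, plus strand) went from 1556, 1582 and 1738 to 4632, 3943 and 4143, a log2 rise of 1.38 (adjusted p = 2.1e-12). For both genes the 3 libraries of 6KO2 lay above the 3 of the parent; the WT means were 6273 for Hmga2 and 3537 for Hmga1. Both overlap antisense genes.

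Over the whole transcriptome, 1335 of 18565 genes tested were called higher in 6KO2 (7.19%) and 1693 lower (9.12%). Of the called genes, 1330 and 1688 had no overlap between the 3 and 3 libraries, whereas among all genes tested 34.3% lay higher and 33.2% lower in this way. The median log2 change over all genes tested was 0.02. In bulk RNA, fewer cells of a type and less RNA per cell cannot be told apart. Repeat elements split unevenly: 22 of 1207 were called higher (1.82%) and 202 lower (16.7%), and 20 and 200 of these had no overlap, beside 5.88% and 66.4% of all elements. Without U2 and MER34B-int, the counts were 20 and 202, and with E2 replicate 2 and E1E2 replicate 2 left out of the fit they were 22 and 203 elements and 1336 and 1687 genes. The median element had a log2 change of -0.47, and this value depended on the scaling: with factors from repeat counts alone it was 0.04, and 55 elements were called higher and 66 lower. Counts by class and family are given below under both scalings.

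The sharpest rise among satellites was in GSAT_MM, the major satellite of pericentric heterochromatin. GSAT_MM had 461, 397 and 403 normalized counts in the parent and 11527, 9972 and 11719 in 6KO2. The lowest 6KO2 library lay far above the highest parental one, and the means differed 26.4 times (log2 change 4.72, SE 0.129, edgeR adjusted p = 4.8e-32). The mean was 269 in WT and 433 in E1, so that the parent, with 4 KMT genes mutated, stood near the lines with few, while E1 S1S2 had 4512 and 6KO1 28024. MMSAT4, a satellite of zinc finger gene clusters, went from 5091, 5333 and 5279 to 12753, 11532 and 12726, 2.36 times higher (log2 change 1.24, adjusted p = 7.7e-12).

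The third satellite to be called moved the other way. SYNREP_MM had 446, 348 and 299 normalized counts in the parent and 44.5, 27.4 and 37.6 in 6KO2, a mean 9.98 times lower (log2 change -3.31, adjusted p = 3.9e-20). The WT mean was 35, so it was the parent that stood high and 6KO2 that lay at the WT level. IMPB_01 and ZP3AR were not called, with log2 changes of -0.44 and -0.06 that turned to 0.07 and 0.45 with factors from repeat counts alone. Summed over the class, satellites had 14159 to 14390 normalized counts in the parent and 28145 to 30858 in 6KO2, a log2 ratio of 1.06, or 0.95 without MMSAT4, its largest element. With 3 libraries against 3 the exact two-sided permutation test cannot go below p = 0.1, which is the value it gave for each class total with all elements and gene scaling. As a family, satellites were called higher by edgeR (adjusted p = 1.7e-11), a call lost without MMSAT4 at a log2 change of 0.95. The other of the 2 families called higher among 56 (3.57%) was snRNA. In means, U2 held 203 of the 22663 normalized counts of snRNA in the parent and 46321 of 83192 in 6KO2. Dong-R4 was the family called lower (1.79%).

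**Figure D1:**
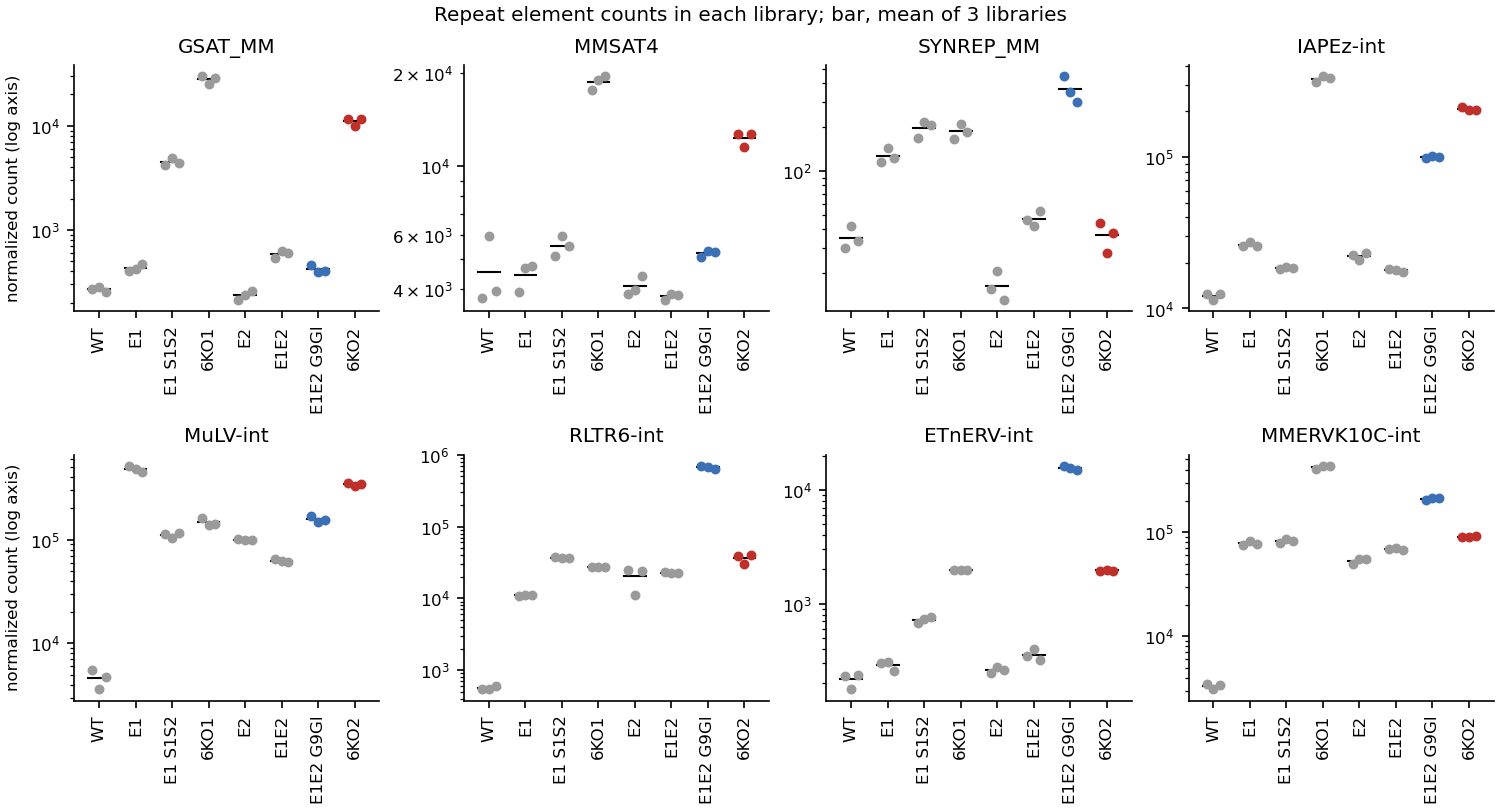
Normalized counts (vertical log axes) of 8 repeat elements in each library of the 8 conditions (horizontal axes), with the mean of 3 libraries as a bar, E1E2 G9Gl in blue and 6KO2 in red. GSAT_MM, MMSAT4, IAPEz-int and MuLV-int lie higher in 6KO2 than in its parent, and SYNREP_MM, RLTR6-int, ETnERV-int and MMERVK10C-int lie lower, the last of these no longer called with factors from repeat counts alone.

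LTR retrotransposons, the remnants and active copies of endogenous retroviruses, changed in both directions in 6KO2, in proportions that depended on the scaling. Of 579 LTR elements tested, 16 were called higher (15 without MER34B-int) and 129 lower, and the median log2 change was -0.53. With factors from repeat counts alone, 34 were called higher and 53 lower, with a median of -0.03. Among elements with a mean of at least 200 normalized counts in the higher condition, the largest falls were in the ERV1 family. RLTR6-int, an internal part of murine leukemia virus-like elements, had 704074, 670365 and 631756 normalized counts in the parent and 38633, 30507 and 40637 in 6KO2. That mean was 18.3 times lower (log2 change -4.19, adjusted p = 1.1e-25), yet still above the 562 of WT. Its long terminal repeat RLTR6B_Mm fell by 4.31 on the log2 scale, and MURVY-int, whose counts went from 11172, 10641 and 10032 to 523, 477 and 522, fell by 4.39.

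Further elements of the ERV1 and ERVK families fell. ERVB3_1-I_MM fell by 3.42, RLTR48B by 3.08, LTRIS5 by 3.03 and RLTR44E by 3.01. ETnERV-int, an early transposon-related element of the ERVK family, went from 16376, 15750 and 14934 to 1954, 1986 and 1937, 8.01 times lower (SE 0.116 on the log2 scale, adjusted p = 3.7e-26). MMERVK10C-int went from 204156, 211198 and 213617 to 90952, 90829 and 90986, a log2 change of -1.21. This fall and that of its long terminal repeat RLTR10C (-1.06) were no longer called with factors from repeat counts alone, at -0.70 and -0.55. The falls of RLTR6-int, MURVY-int and ETnERV-int were called under every alternative scaling run.

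Other LTR elements rose from a level that was already high in the parent. IAPEz-int, the internal part of intracisternal A particles, had 98663, 101635 and 99363 normalized counts in the parent and 212615, 203740 and 205801 in 6KO2, 2.08 times higher (log2 change 1.05, adjusted p = 1.1e-13). The WT mean was 12093. Its long terminal repeats IAPLTR1_Mm and IAPLTR1a_Mm had log2 changes of 0.88 and 0.98, below the call, and 1.39 and 1.48, called, with factors from repeat counts alone. MuLV-int, murine leukemia virus sequence, went from 168720, 147436 and 155509 to 353115, 333114 and 347486 (log2 change 1.13). RLTR6-int belongs to murine leukemia virus-like elements too, and how any reads that fit both were divided is not given. The level of either element is therefore uncertain. RLTR45-int went from 5676, 5561 and 5848 to 12813, 12437 and 12539 (log2 change 1.15), ERVB4_3-I_MM rose by 1.31 and MMERVK10D3_LTR, from 201, 222 and 189 to 1552, 1419 and 1557, by 2.89.

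The internal part of that last element did not follow its long terminal repeat: MMERVK10D3_I-int had a log2 change of 0.22. MMVL30-int, a virus-like 30S element, had 111826, 112665 and 116646 normalized counts in the parent and 228406, 155964 and 222592 in 6KO2. Its 6KO2 libraries were uneven, with replicate 2 below the others, and its log2 change of 0.83 was not called, although 1.34 with factors from repeat counts alone was. MERVL-int, an ERVL element of the early embryo, had a log2 change of -0.57 and its repeat MT2_Mm one of -0.40, which was 0.11 with factors from repeat counts alone.

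By family, 6 of 105 ERV1 elements were called higher (5 without MER34B-int) and 29 lower, and 9 of 270 ERVK elements higher and 79 lower. With factors from repeat counts alone these counts were 11 and 15 for ERV1 and 20 and 32 for ERVK. The family sums were not called: ERV1 had a log2 change of -0.56 and ERVK one of -0.32, the latter turning to 0.19 with factors from repeat counts alone. Without RLTR6-int, the ERV1 sum turned to a log2 ratio of 0.57. Without IAPEz-int, the largest ERVK element in the 6 libraries, the ERVK sum had a log2 ratio of -0.73. The LTR class total went from a mean of 2312631 ± 53209 (SD, n = 3) to 1665572 ± 76778 (SD, n = 3) normalized counts, a log2 ratio of -0.47, which was 0.03 with factors from repeat counts alone. RLTR6-int by itself held 631756 to 704074 of these counts in the parent and 30507 to 40637 in 6KO2, and was the largest element of the class in the 6 libraries. Without it the class means were 1643899 and 1628980, a log2 ratio of -0.01 (exact two-sided permutation p = 0.9), so that the fall of the class total rested on this element. Without MMVL30-int, the largest element over all 24 libraries, the ratio was -0.59.

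LINE elements lay lower as a class under both scalings. The LINE total went from 772644 to 806977 normalized counts in the parent to 465950 to 483778 in 6KO2, a log2 ratio of -0.73 (-0.22 with factors from repeat counts alone). Of 224 L1 elements, 39 were called lower and 1 higher, or 7 and 4 with factors from repeat counts alone. The one higher under gene scaling, L1MdA_II_5end_ORF1only, a fragment of a young L1 subfamily, went from 65.8, 56.7 and 73.8 to 266, 344 and 262 normalized counts (log2 change 2.15). Of the 213 DNA transposon elements, 23 were called lower and none higher by edgeR; at an unadjusted p under 0.05, 3 were higher, and DESeq2 called none higher and 22 lower. With factors from repeat counts alone, 2 DNA elements were called lower and 1 higher. The DNA class total had a log2 ratio of -0.36 and the SINE total one of -0.16, and both turned positive, at 0.15 and 0.35, with factors from repeat counts alone. Among 37 SINE elements edgeR and DESeq2 called none, while 2 were higher and 23 lower at an unadjusted p under 0.05, and 2 were called higher with factors from repeat counts alone; the Alu family, which in mouse holds the B1 elements, had a log2 change of -0.26, or 0.24 with factors from repeat counts alone.

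**Figure D2:**
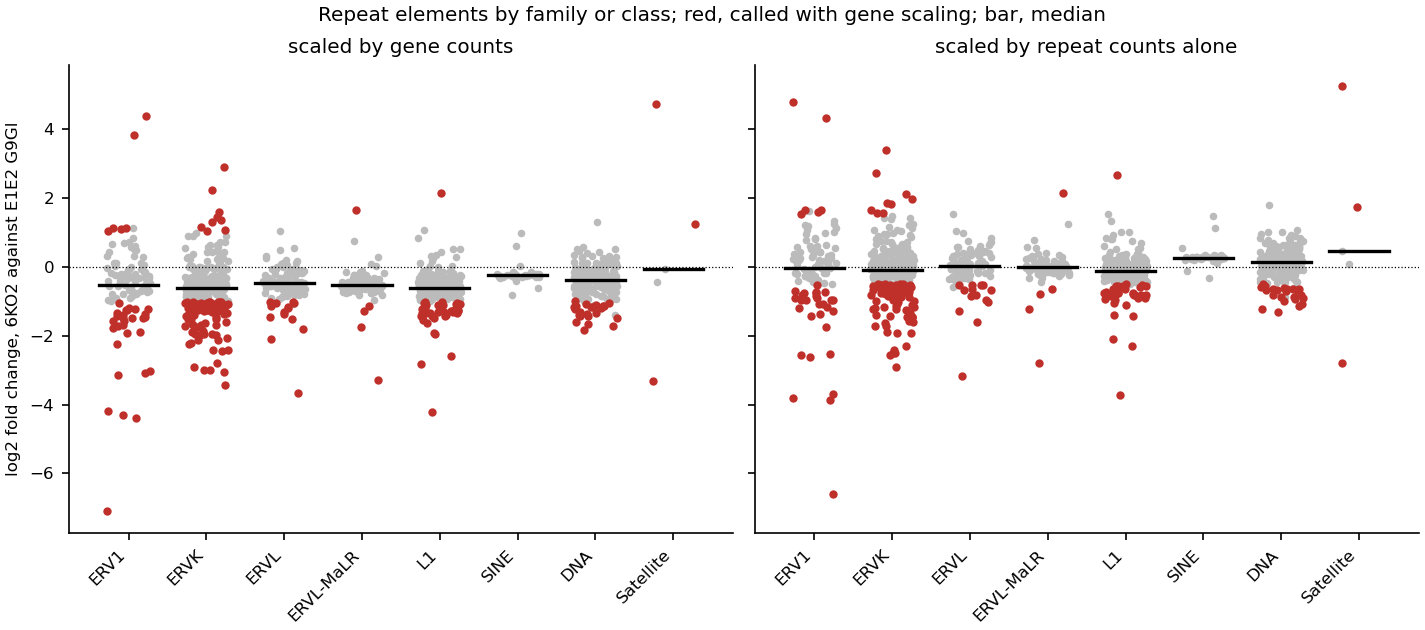
Log2 fold change of each repeat element (points) by family or class, scaled by gene counts on the left and by repeat counts alone on the right, with medians as bars and the elements called with gene scaling in red. Medians of ERV1, ERVK and L1 lie at -0.54, -0.60 and -0.63 on the left and close to 0 on the right, where the medians of SINE and DNA elements are above 0, whereas GSAT_MM at the top and RLTR6-int and MURVY-int near the bottom keep their places.

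Among genes, the highest fold changes lay in 1 stretch of chromosome 4 that holds a tandem cluster of KRAB zinc finger genes, the DNA-binding repressors that recruit Eset1 to repeats. The stretch was bounded by its outermost called zinc finger genes, so its limits rest on these values and the counts are a description. Between Zfp990 and Zfp534 (chr4:145510759-147702553, GRCm38), 32 of 46 genes tested were called higher, and none lower by edgeR or DESeq2, with 1 lower at an unadjusted p under 0.05. All 17 genes there with a zinc finger symbol (Zfp and a number, or Rex2) were called higher. Their summed normalized counts were 617 to 694 in the parent and 8836 to 9956 in 6KO2. The 345 other genes of the genome with a Zfp symbol had 13 called higher and 22 lower, with a median log2 change of -0.09. Among all genes tested, 7.19% were called higher and 9.12% lower.

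The starts of these genes resemble each other. Of the 17 zinc finger genes, 11 had an entry in the RefSeq promoter table (GRCm38.p6), and for 9 of these its start lay within 1000 bases of the annotated gene start; to these Zfp984 was added, a neighbour just outside the stretch that was not called (mean 668 normalized counts in the parent, 790 in 6KO2). Over the 250 bases before the start, pairwise identity of these 10, with a shift of up to 60 bases allowed, ran from 61.1% to 98.8% (median 74.9%), and the longest run of letters shared was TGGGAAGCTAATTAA. Because the run was taken from these 10 promoters, their own matches were given in advance. Searched on both strands, this run occurred in 12 of 32851 promoters of the table (0.0365%), and all 12 lay in or next to the cluster. Zfp984 holds it too, so it does not set the called genes apart. The promoters of 5 called genes and of Zfp984 are printed 5′ to 3′ on the gene's strand, with the shared run in capitals, to show what they share and where they differ.
Zfp980 (chr4:145670447-145670696, plus strand): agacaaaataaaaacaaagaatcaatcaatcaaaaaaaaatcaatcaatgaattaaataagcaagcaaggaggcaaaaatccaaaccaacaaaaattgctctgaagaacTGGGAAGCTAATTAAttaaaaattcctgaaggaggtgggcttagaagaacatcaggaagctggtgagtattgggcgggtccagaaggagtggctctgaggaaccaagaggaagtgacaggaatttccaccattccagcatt
Rex2 (chr4:147021600-147021849, plus strand): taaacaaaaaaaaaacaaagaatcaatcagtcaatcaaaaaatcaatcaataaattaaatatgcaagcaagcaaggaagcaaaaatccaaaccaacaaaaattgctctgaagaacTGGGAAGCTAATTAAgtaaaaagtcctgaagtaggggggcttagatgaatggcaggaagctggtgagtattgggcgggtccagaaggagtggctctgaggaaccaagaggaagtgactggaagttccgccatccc
Zfp979 (chr4:147642509-147642758, minus strand): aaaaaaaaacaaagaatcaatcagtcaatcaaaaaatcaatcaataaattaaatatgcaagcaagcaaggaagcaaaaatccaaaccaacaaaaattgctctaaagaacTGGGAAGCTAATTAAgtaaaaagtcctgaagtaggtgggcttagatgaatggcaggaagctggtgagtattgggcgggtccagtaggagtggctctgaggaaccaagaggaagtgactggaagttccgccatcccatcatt
Zfp985 (chr4:147553027-147553276, plus strand): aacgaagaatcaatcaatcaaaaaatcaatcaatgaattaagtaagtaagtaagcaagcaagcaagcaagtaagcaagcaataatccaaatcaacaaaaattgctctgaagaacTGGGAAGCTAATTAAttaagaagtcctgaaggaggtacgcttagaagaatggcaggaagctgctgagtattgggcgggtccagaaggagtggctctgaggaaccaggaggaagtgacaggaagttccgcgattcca
Zfp534 (chr4:147702632-147702881, minus strand): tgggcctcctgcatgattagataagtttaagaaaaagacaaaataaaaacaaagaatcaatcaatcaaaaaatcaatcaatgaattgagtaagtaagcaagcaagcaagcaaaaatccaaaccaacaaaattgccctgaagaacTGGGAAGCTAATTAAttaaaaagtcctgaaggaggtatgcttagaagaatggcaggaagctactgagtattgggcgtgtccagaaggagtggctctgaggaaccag
Zfp984 (chr4:147809789-147810038, minus strand): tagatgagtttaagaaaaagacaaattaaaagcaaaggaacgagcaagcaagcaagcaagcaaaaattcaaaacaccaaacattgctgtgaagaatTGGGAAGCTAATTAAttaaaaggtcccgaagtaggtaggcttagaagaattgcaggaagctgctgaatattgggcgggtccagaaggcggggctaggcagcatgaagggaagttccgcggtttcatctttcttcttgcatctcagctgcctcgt

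Most of these genes had next to no counts in the parent. Zfp980 had 0 counts in all 3 parental libraries and 362, 349 and 340 normalized counts in 6KO2, at least 99.2-fold higher when 3 counts per library are taken as the floor. Rex2 had 0 in the parent and 294, 198 and 262 in 6KO2, at least 71.1-fold higher, and Zfp987 and Zfp989, also at 0 in the parent, were at least 30.6-fold and 15.7-fold higher. Zfp979 went from 0, 3.5 and 3.9 to 1481, 1350 and 1525, and Zfp978 from 1.1, 1.2 and 1.3 to 1203, 968 and 1116, a log2 change of 9.73 (adjusted p = 6.3e-18). Zfp985 went from 1.1, 2.3 and 0 to 826, 656 and 836, and Zfp534 from 0, 0 and 3.9 to 423, 362 and 409. WT was low as well, with means of 0 for Zfp980, 0.7 for Zfp978 and 20.4 for Zfp979, whereas 6KO1 had means of 514, 1830 and 1822.

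A second set of the cluster had counts in the parent and rose by less. Zfp981 went from 25.9, 34.7 and 37.6 to 1601, 1397 and 1551 normalized counts (log2 change 5.54), Zfp992 from 416, 445 and 452 to 1313, 1235 and 1322 (log2 change 1.56), and Zfp993 and Zfp991 rose by 1.83 and 1.03. The 14 genes not called were pseudogenes or a lincRNA, such as Gm13231 (log2 change -0.06), Gm13237 (-0.55) and Gm13135 (0.10), which were spread between the genes that rose. Members of the cluster are related in sequence, and how reads that fit several of them were divided is not given in the sources used here, so the level of a single gene is uncertain.

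**Figure D3:**
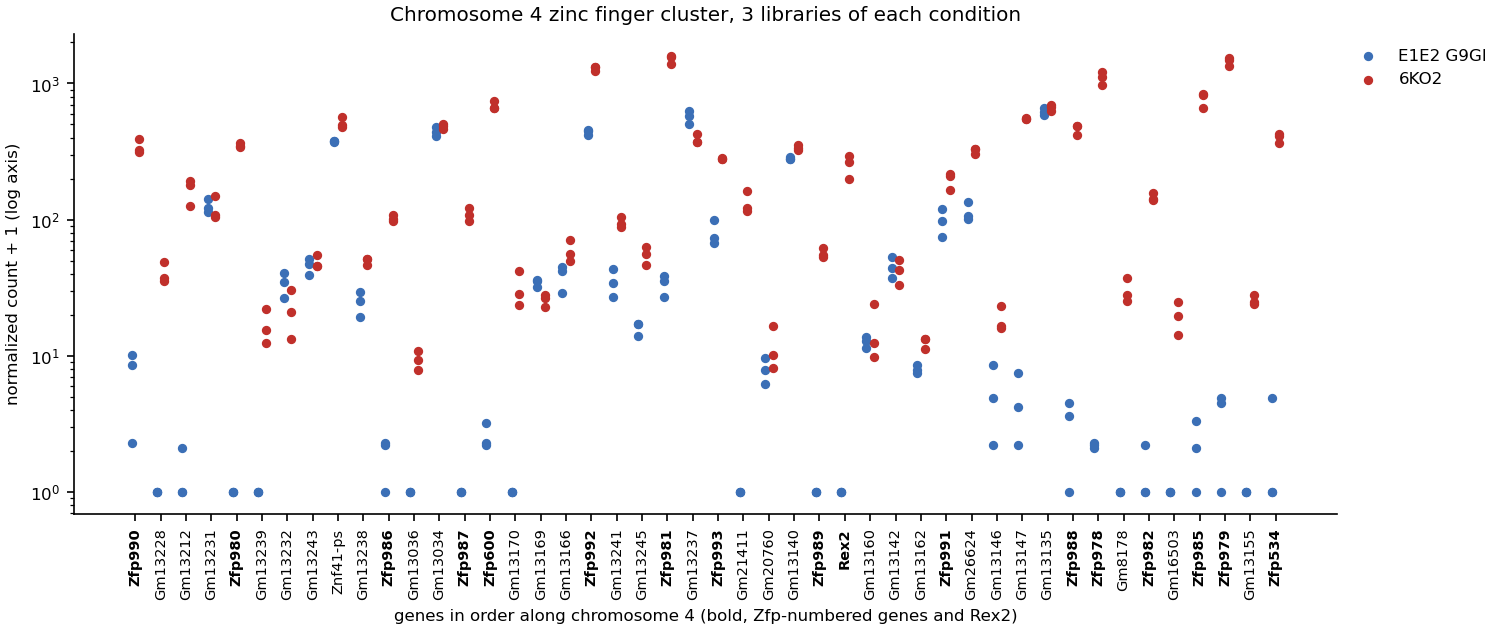
Normalized count plus 1 (vertical log axis) of the 46 tested genes of the chromosome 4 zinc finger cluster in their order along the chromosome (horizontal axis), with E1E2 G9Gl libraries in blue, 6KO2 libraries in red and Zfp-numbered genes and Rex2 in bold. All 17 bold genes lie higher in 6KO2, while pseudogenes such as Gm13231 and Gm13135 between them overlap.

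Interferon response genes, which cells switch on after sensing viral nucleic acids, were mostly lower in 6KO2 than in its parent. Of 43 tested, 27 were called lower (62.8%) and 3 higher (6.98%), beside 9.12% and 7.19% of all genes tested. The median log2 change was -1.52, beside 0.02 for all genes. The summed normalized counts were 81696 to 82634 in the parent and 30641 to 39597 in 6KO2. The deepest fall was in Ifi27l2a, followed by the oligoadenylate synthetases, enzymes that activate RNase L on double-stranded RNA. Oas2 went from 1512, 1392 and 1335 to 37.2, 16 and 63 normalized counts (log2 change -5.18, SE 0.221, adjusted p = 5.3e-15). Oas3 went from 3724, 3382 and 3493 to 167, 69.7 and 168 (log2 change -4.70), and Oas1a from 1736, 1719 and 1822 to 92.1, 76.6 and 99.4 (log2 change -4.30). Their WT means were 1.4, 2.3 and 5.6, so that 6KO2 lay between WT and its parent. In 6KO1, mutated in the same 6 genes, the Oas2 mean was 1014, against 38.7 in 6KO2. The Ifi27l2a mean was 259 in 6KO1, against 4.0 in 6KO2. Ifi27l2a went from 903, 969 and 940 to 4.1, 5.7 and 2.2, a log2 change of -7.83, and Ifi27, a related interferon-induced gene, from 5781, 5768 and 5658 to 935, 755 and 928 (log2 change -2.72).

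Transcription factor genes of the pathway were also among those called lower. Irf7, a regulator of interferon genes, went from 841, 822 and 834 to 304, 167 and 335 normalized counts (log2 change -1.63). Irf9 and Stat2, which carry the interferon signal to the nucleus, fell by 1.12 and 1.15. Irf5 rose from 56.1, 41.6 and 49.2 to 354, 346 and 341 (log2 change 2.82); it overlaps Tnpo3 on the other strand. The other called rises were in the chemokine genes Ccl5 and Cxcl10. A group of antiviral genes that was as high in the parent as the rest did not pass the call: Ifit1 had 2305, 2360 and 2291 in the parent and 1699, 1344 and 2079 in 6KO2 (log2 change -0.44), Isg15 had a log2 change of -0.80, Ifit2 of -0.40, Rsad2 of 0.16 and Mx1 of 0.45. In Ifit1, Oas3 and Irf7, among others, 6KO2 replicate 2 was the lowest of its 3 libraries, as it was in Ifit3 with 573, 241 and 744; without that library 24 genes of the list were called lower.

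The interferon-stimulated response element, to which these factors bind, was searched as GAAA repeated after any 2 bases, on both strands of the 250 bases before the start; overlapping matches were counted. It occurred in 978 of 32851 RefSeq promoters (2.98%). Of 33 interferon genes with an entry, 15 held it, of which 10 were called lower, 1 higher and 4 neither; among the 18 without it, 9 were lower, 1 higher and 8 neither. The promoters of Oas1a and Oas3, which fell, and of Ifit1 and Isg15, which were not called, are shown with the match in capitals (GRCm38.p6); in Ifit1 the capitals read the motif on the opposite strand.
Oas1a (chr5:120907526-120907775, minus strand): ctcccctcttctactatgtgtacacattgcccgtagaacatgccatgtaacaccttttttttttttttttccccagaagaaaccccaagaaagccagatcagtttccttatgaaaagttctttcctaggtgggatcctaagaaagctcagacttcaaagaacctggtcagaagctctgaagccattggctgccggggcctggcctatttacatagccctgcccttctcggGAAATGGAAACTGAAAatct
Oas3 (chr5:120777660-120777909, minus strand): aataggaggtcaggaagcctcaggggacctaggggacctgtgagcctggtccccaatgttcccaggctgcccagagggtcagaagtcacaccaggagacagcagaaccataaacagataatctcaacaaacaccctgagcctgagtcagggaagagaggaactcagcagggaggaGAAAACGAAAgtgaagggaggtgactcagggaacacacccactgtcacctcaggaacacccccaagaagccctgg
Ifit1 (chr19:34640639-34640888, plus strand): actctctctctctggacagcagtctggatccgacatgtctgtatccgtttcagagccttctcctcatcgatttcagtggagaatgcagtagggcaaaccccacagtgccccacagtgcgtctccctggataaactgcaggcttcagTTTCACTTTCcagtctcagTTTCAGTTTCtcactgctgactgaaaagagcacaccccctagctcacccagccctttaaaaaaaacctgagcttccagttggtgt
Isg15 (chr4:156200819-156201068, minus strand): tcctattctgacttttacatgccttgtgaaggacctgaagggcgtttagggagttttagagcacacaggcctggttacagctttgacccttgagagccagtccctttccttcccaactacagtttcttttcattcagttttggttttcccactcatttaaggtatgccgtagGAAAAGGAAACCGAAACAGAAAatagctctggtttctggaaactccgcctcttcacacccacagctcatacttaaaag

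Genes of nucleic acid sensors upstream of interferon changed in both directions. Of 17 tested, 4 were called lower (23.5%) and 3 higher (17.6%), beside 9.12% and 7.19% of all genes tested. The median log2 change was -0.63. Tlr7, an endosomal receptor of single-stranded RNA, went from 274, 272 and 271 to 9.3, 24 and 11 normalized counts (log2 change -4.21, adjusted p = 9.8e-13). Tlr3, the endosomal receptor of double-stranded RNA, fell from 989, 1066 and 917 to 288, 263 and 366 (log2 change -1.70), and Ifih1, which encodes the cytosolic sensor MDA5, from 3985, 4000 and 3904 to 1671, 1538 and 1908 (log2 change -1.22). The DNA sensor gene Ifi204 fell by 1.84. In means, 6KO1 had 99.6 normalized counts of Tlr7 and 2692 of Ifi204, against 14.8 and 718 in 6KO2. Tlr2 rose by 2.02 and Ikbke by 1.05, and Zbp1, a sensor of Z-form nucleic acids, went from 12.9, 19.7 and 13 to 52.7, 33.2 and 68.5 (log2 change 1.75). Ddx58, which encodes RIG-I, had a log2 change of -0.92, Cgas of 0.54 and the adaptor Mavs of -0.02, none of them called.

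Antigen presentation by MHC class I, itself interferon-inducible, was mostly lower. Of 20 genes tested, 16 were called lower (80%) and 1 higher (5%), beside 9.12% and 7.19% of all genes tested. The median log2 change was -2.24. H2-K1, which encodes a classical class I heavy chain, went from 17126, 16853 and 16832 to 3429, 2802 and 3407 normalized counts (log2 change -2.40), and H2-D1 from a mean of 18313 to one of 5086. Their light chain B2m fell by 1.85, the peptide transporter genes Tap1 and Tap2 by 2.08 and 1.85, and Nlrc5, the transactivator of class I genes, by 2.53. H2-Bl fell from 340, 306 and 269 to 3.1, 1.1 and 1.1. Tapbp, with 4097, 3758 and 3785 in the parent and 3592, 2907 and 3820 in 6KO2, was not called (log2 change -0.17). Class I genes are close paralogs and the division of shared reads is not known, and with only genes above a mean of 100 normalized counts retained the counts were 10 lower and 0 higher.

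Chemokine genes, by contrast, were mostly higher in 6KO2. Of 19 tested, 12 were called higher (63.2%) and 3 lower (15.8%), beside 7.19% and 9.12% of all genes tested. The median log2 change was 2.68, or 2.31 with Ccl4, at 0 in the parent, set to its lower bound. Ccl2, which attracts monocytes, went from 1700, 1753 and 1850 to 10861, 11670 and 11488 normalized counts (log2 change 2.68, adjusted p = 2.3e-05), and its neighbour Ccl7 rose by 2.86. The neutrophil attractant Cxcl1 went from 58.3, 69.4 and 63.5 to 1711, 2393 and 1809 (log2 change 4.95), and Ccl20 from 21.6, 27.8 and 20.7 to 1145, 788 and 1189 (log2 change 5.47). Ccl5 went from 24.8, 22 and 25.9 to 655, 434 and 669, a log2 change of 4.59, and Cxcl10 rose by 2.31. The Ccl5 mean was 120 in WT and 1200 in E1E2, so that the parent lay below both. Ccl9, Ccl17 and Cxcl12 were called lower, the last from 1919, 1934 and 2039 to 716, 622 and 650 (log2 change -1.57). Icam1, an adhesion molecule of inflamed cells, went from 3.2, 1.2 and 6.5 to 340, 174 and 545, a mean 97.4 times higher. Its means were 0 in WT, 66.7 in E2 and 296 in E1E2, and it overlaps an antisense gene.

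Targets of p53, the tumor suppressor that responds to DNA damage and stress, were called in 1 direction only. Of 24 genes tested, 12 were called higher (50%, beside 7.19% of all genes tested), with a median log2 change of 1.03. None was called lower by edgeR or DESeq2, and none was lower at an unadjusted p under 0.05. Cdkn1a, which encodes the cell cycle inhibitor p21, went from 243, 234 and 242 to 1076, 1022 and 1049 normalized counts (log2 change 2.13, SE 0.0659, adjusted p = 2e-17). Trp53inp1 went from 216, 205 and 228 to 1267, 1261 and 1192 (log2 change 2.52), and the pro-apoptotic gene Pmaip1 from 20.5, 26.6 and 15.5 to 214, 238 and 241 (log2 change 3.45). The WT mean of Pmaip1 was 395, so that 6KO2 lay between the parent and WT, whereas that of Gdf15 was 1.9, below 6KO2. Ccng1 rose by 1.40, Fas by 1.71, Zmat3 by 1.44 and Trp53 itself, from 1539, 1385 and 1602 to 3568, 2859 and 3053, by 1.07. Mdm2, the negative regulator of p53, stood just below the call at 0.99, and Bax (0.09) and Sesn1 (-0.17) were not called. Gdf15, called at 2.85 on counts of 0 to 20.6, lost its call without 6KO2 replicate 2 (adjusted p = 0.012).

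Cell cycle genes did not pass the call. None of 39 was called by edgeR or DESeq2, the median log2 change was -0.15, and 6 were higher and 21 lower at an unadjusted p under 0.05. Of 19 stress genes, 3 rose (15.8%) and 2 fell (10.5%), beside 7.19% and 9.12% of all genes tested. Slc7a11, the cystine transporter, rose by 2.26, the transcription factor gene Atf3 by 1.45 and the heat shock gene Hspa1b by 1.61, while Hspa5, the chaperone of the endoplasmic reticulum, fell from 65199, 68038 and 63225 to 25139, 25104 and 25600 (log2 change -1.37) and Fos fell by 1.41.

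**Figure D4:**
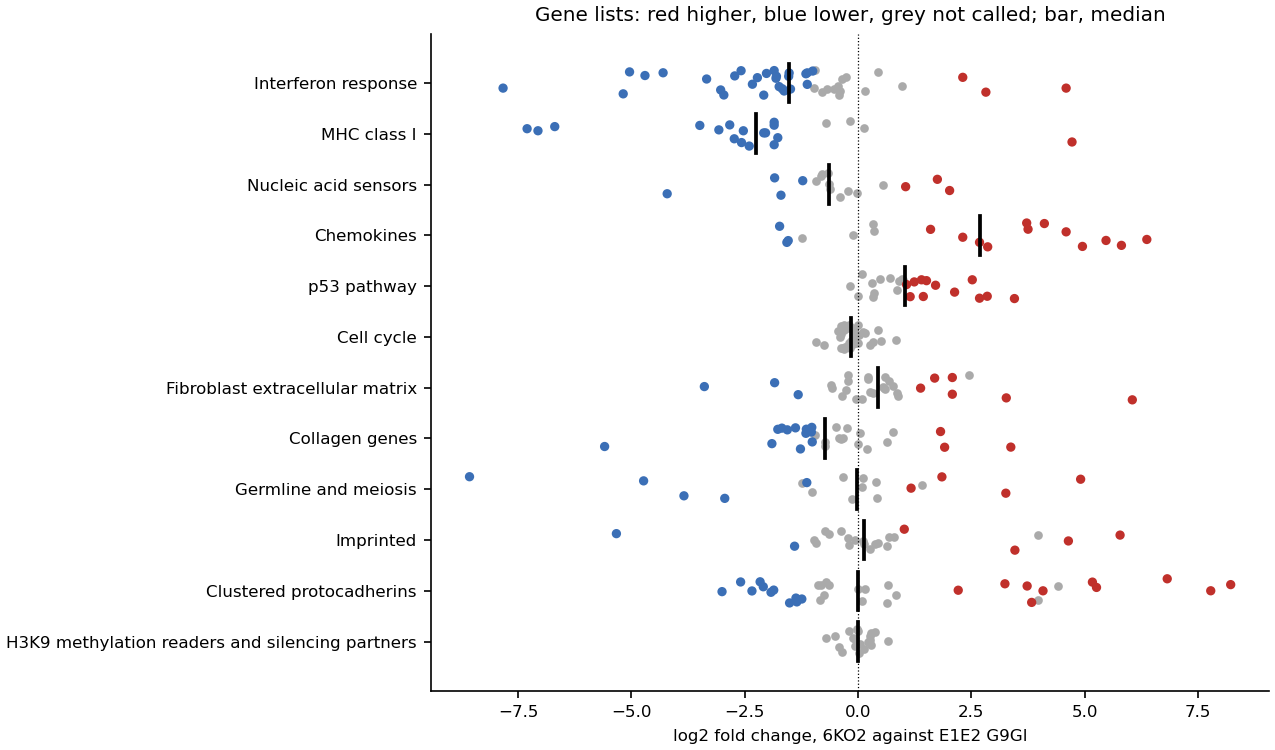
Log2 fold change of 6KO2 against E1E2 G9Gl (horizontal axis) of each tested gene of 12 lists (rows), with genes called higher in red, called lower in blue, not called in grey and the list median as a bar. Medians of interferon response (-1.52) and MHC class I genes (-2.24) lie left of 0, those of chemokines (2.68) and the p53 pathway (1.03) right of 0, and cell cycle genes and H3K9 methylation readers center near 0.

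Fibroblast genes were changed in both directions in 6KO2. Of 28 collagen genes, 12 were called lower (42.9%) and 3 higher (10.7%), beside 9.12% and 7.19% of all genes tested. The median log2 change was -0.73. Col3a1, a fibrillar collagen, went from 48326, 49210 and 48322 to 12888, 12793 and 13460 normalized counts (log2 change -1.90, adjusted p = 3.5e-16), and Col1a2 fell by 1.15 while Col1a1 had a log2 change of -0.72. Col28a1 fell from 611, 600 and 593 to 12.4, 12.6 and 12.2, at a WT mean of 0. Col6a3 rose from 19.4, 22 and 14.2 to 178, 195 and 209 (log2 change 3.37), toward its WT mean of 358. In the list of 30 other extracellular matrix genes 6 rose (20%) and 3 fell (10%), with a median of 0.44. The proteoglycan gene Dcn rose from 0, 2.3 and 3.9 to 120, 149 and 146 and Fbln1 from 20.5, 13.9 and 10.4 to 134, 147 and 160, while the matrix metalloproteinase genes Mmp3 and Mmp13 fell by 3.39 and 1.84 and Thbs1 by 1.32.

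The label of the cells was checked on 13 fibroblast markers, all of which were tested. Vim, Fn1, Col1a1, Col1a2 and Col3a1 had at least 12793 normalized counts in each of the 6 libraries. Thy1, a surface marker, went from 426, 390 and 420 to 4.1, 1.1 and 0 (log2 change -7.73, adjusted p = 1.9e-16; WT mean 199), S100a4 fell by 2.22, and Pdgfra rose from 14, 11.6 and 15.5 to 73.4, 74.3 and 81.7 (log2 change 2.47; WT mean 129). In all, 2 of the 13 were called higher (Dcn and Pdgfra), 4 lower (Thy1, S100a4, Col3a1 and Col1a2) and 7 neither. That is 15.4% higher and 30.8% lower, beside 7.19% and 9.12% of all genes tested.

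Markers of other cell types moved too. Of 5 leukocyte markers tested, 3 were called lower (60%) and 1 higher (20%), beside 9.12% and 7.19% of all genes tested. Their summed normalized counts were 786 to 850 in the parent and 227 to 267 in 6KO2. Itgam, the integrin of myeloid cells, fell from 506, 519 and 497 to 24.8, 14.9 and 24.3 and Lyz2 from 154, 162 and 140 to 29, 12.6 and 13.3, both at a WT mean of 0, and Ptprc fell by 1.35, whereas Adgre1 had 0 counts in all 6 libraries and Csf1r, not tested, 0 raw counts in the parent and 20 in 6KO2. Itgam shares exon bases with the gene model Gm49368. Cd14 rose by 1.71. Epithelial markers gave 2 higher and 1 lower of 5 (sums 351 to 359 and 609 to 653; Krt5 at 0 in the parent), endothelial 2 higher of 5 (73 to 95 and 118 to 165; Emcn at 0 in both lines), muscle 1 higher and 1 lower of 3 (319 to 329 and 128 to 147), neural 1 higher of 4 (12005 to 12999 and 15113 to 16514; Sox2, Olig2 and Dcx at 0 in both lines) and pluripotency 1 lower of 3 (24 to 40 and 16 to 22; Zfp42 at 0 in both lines). The part of such markers in the interferon, MHC class I and chemokine values was not tested. Pecam1 among the endothelial markers, on 0 to 26.3 normalized counts, was no longer called in a fit of only the 6 libraries compared (adjusted p = 0.026).

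Genes that DNA methylation and H3K9 methylation keep silent in somatic cells changed in both directions. Of 18 germline genes tested, 5 fell (27.8%) and 4 rose (22.2%), beside 9.12% and 7.19% of all genes tested. Tex19.1, a germline gene involved in retrotransposon control, fell from 833, 882 and 848 to 59, 61.7 and 57.4 normalized counts (log2 change -3.84), Tex101 from 188, 175 and 194 to 1, 0 and 0, Tex15 from 146, 146 and 124 to 5.2, 5.7 and 4.4, and the meiotic cohesin gene Stag3 fell by 2.94. For these 4 genes the WT means were 2.3, 0, 1.3 and 8.9, so that 6KO2 lay between WT and the parent in Tex19.1, Tex15 and Stag3. Syce2 rose by 1.85 and Tdrd5 from 0, 2.3 and 2.6 to 12.4, 17.1 and 18.8. Spo11 was called on counts of 0 in the parent and 2.1, 5.7 and 3.3 in 6KO2, and lost its call when 1 of 4 single libraries was left out.

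Of 23 imprinted genes, 4 rose (17.4%) and 2 fell (8.7%). Dlk1 went from 3.2, 0 and 1.3 to 99.3, 107 and 70.7 normalized counts (log2 change 5.78), Peg3 from 2.2, 0 and 2.6 to 41.4, 46.9 and 37.6 (log2 change 4.64) and H19 from 0, 1.2 and 1.3 to 12.4, 8 and 8.8, while Peg10 rose by 1.02. Cdkn1c fell by 1.40 and Mest from 21.6, 15 and 22 to 0, 1.1 and 0; both overlap antisense genes. The clustered protocadherins, adhesion genes in tandem arrays, divided by subcluster. Of 35 tested, 10 were called higher (28.6%) and 11 lower (31.4%). All 10 called higher were of the beta cluster, such as Pcdhb1, from 1.1, 0 and 1.3 to 122, 94.9 and 88.4, and Pcdhb3, from 0 in each library to 45.5, 36.6 and 28.7. The 11 called lower were all of the gamma cluster, such as Pcdhga1, from 100, 68.2 and 93.3 to 15.5, 19.4 and 16.6. Gamma genes share their last exons, and Pcdhga2 and Pcdhga9 overlap Pcdhga1, so these 11 are not separate measurements. That division by subcluster was noticed after the values were seen.

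The remaining chromatin lists held few calls, beside 7.19% of all genes tested called higher and 9.12% called lower. Of 20 genes for readers of H3K9 methylation and silencing partners, none was called by edgeR or DESeq2, with 7 higher and 4 lower at an unadjusted p under 0.05. The 11 H3K9 demethylase genes also had none by either tool, with 2 higher and 0 lower at that p. Of 13 DNA methylation genes, Mbd1 alone was called, falling from 5018, 5076 and 5063 to 1856, 1972 and 1969 (log2 change -1.39; WT mean 726). Among Polycomb genes, Cbx7 and Cbx8 fell by 1.96 and 1.19; Cbx7 overlaps Apobec3. Among 66 replication-dependent histone genes 1 rose and 4 fell, and among 29 Hox genes 1 rose and 2 fell, of which Hoxb13, Hoxc6 and the histone genes Hist1h4i and Hist1h2aa were lost when 1 library was left out. Of the 26 genes of the mitochondrial genome, edgeR called none, DESeq2 called 1 lower, and 0 were higher and 4 lower at an unadjusted p under 0.05.

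Over all genes tested, 81 were switched on in 6KO2, that is under 10 normalized counts in every parental library and at least 50 in every 6KO2 library, and 97 were switched off by the same limits. Ces1g, a carboxylesterase, went from 0, 1.2 and 1.3 to 463, 446 and 493 normalized counts, and Cox7b2 from 1.1, 1.2 and 1.3 to 208, 199 and 199. Grem1, a BMP antagonist, went from 6.5, 3.5 and 3.9 to 552, 538 and 608 and Angptl7 from 2.2, 1.2 and 2.6 to 167, 222 and 221, at WT means of 3242 and 3841, so that 6KO2 lay between the parent and WT. Ctsc, the gene of cathepsin C, went from 2.2, 1.2 and 5.2 to 227, 226 and 196. Its means were 0 in WT, 70.6 in E2 and 88.4 in E1E2, so that the parent lay below E2 and E1E2.

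Among the falls, Mlana, a melanocyte gene, went from 607, 706 and 631 to 2.1, 0 and 2.2, Gdf6, a BMP family ligand, from 439, 394 and 392 to 2.1, 0 and 0, and Ky from 471, 446 and 405 to 0, 2.3 and 0. Lpl, which encodes lipoprotein lipase, went from 1002, 1056 and 974 to 4.1, 6.9 and 12.2, 131 times lower. Ms4a4d fell from 1780, 1784 and 1863 to 14.5, 24 and 18.8 and Nup210, a nucleoporin gene, from 272, 238 and 240 to 7.2, 5.7 and 2.2. The WT means of Mlana, Gdf6, Lpl and Ms4a4d were 0.3, 0, 0.7 and 0, so that the parent stood above both WT and 6KO2.

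Chromosomes differed in their medians, which is given because each line is 1 clone. The median log2 change was 0.32 over the 608 genes tested on chromosome 14, with 77 called higher (12.7%) and 39 lower (6.41%). On chromosome 16 it was -0.22 over 526 genes, with 18 higher (3.42%) and 75 lower (14.3%). On chromosome 4, which holds the zinc finger cluster, it was 0.13 over 1155 genes, with 139 higher (12%) and 67 lower (5.8%). Over all genes tested the shares were 7.19% and 9.12%. Whether copy number differs between the clones was not tested. Of 500 lincRNA genes, 47 were called higher (9.4%) and 106 lower (21.2%).

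The same gene pair, Suv39h1 and Suv39h2, was mutated on another background in the step from E1 to E1 S1S2, which shares no library with the step described here. There 801 genes were called higher (4.31%) and 696 lower (3.75%), and 18 elements higher (1.49%) and 14 lower (1.16%). Genes higher in both steps numbered 204, which is 15.3% of those higher here and 25.5% of those higher there, and genes lower in both 180, which is 10.6% and 25.9%. Opposite calls were given to 157 genes higher here and 174 lower here. The difference of the steps, tested in the same edgeR fit, was called higher for 1432 genes (7.71%) and lower for 1627 (8.76%), and for 250 of 1207 elements (20.7%), 19 higher (18 without U2) and 231 lower, or 62 and 79 elements with factors from repeat counts alone. All libraries of a background again come from 1 clone per genotype.

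GSAT_MM rose in both steps, by 4.72 here and 3.38 in E1 S1S2, and the difference of 1.34 was called (adjusted p = 2.3e-09). Several LTR elements had opposite signs. RLTR6-int rose by 1.73 there and fell by 4.19 here, ETnERV-int rose by 1.33 there and was 8.01 times lower here, and MuLV-int, at a mean of 480221 in E1, fell by 2.11 there and rose by 1.13 here. The differences, -5.93, -4.33 and 3.24 on the log2 scale, were all called. RLTR6-int and MuLV-int may share reads, as said above, and need not be separate measurements. IAPEz-int had a log2 change of -0.52 there, and the difference of 1.57 was called.

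**Figure D5:**
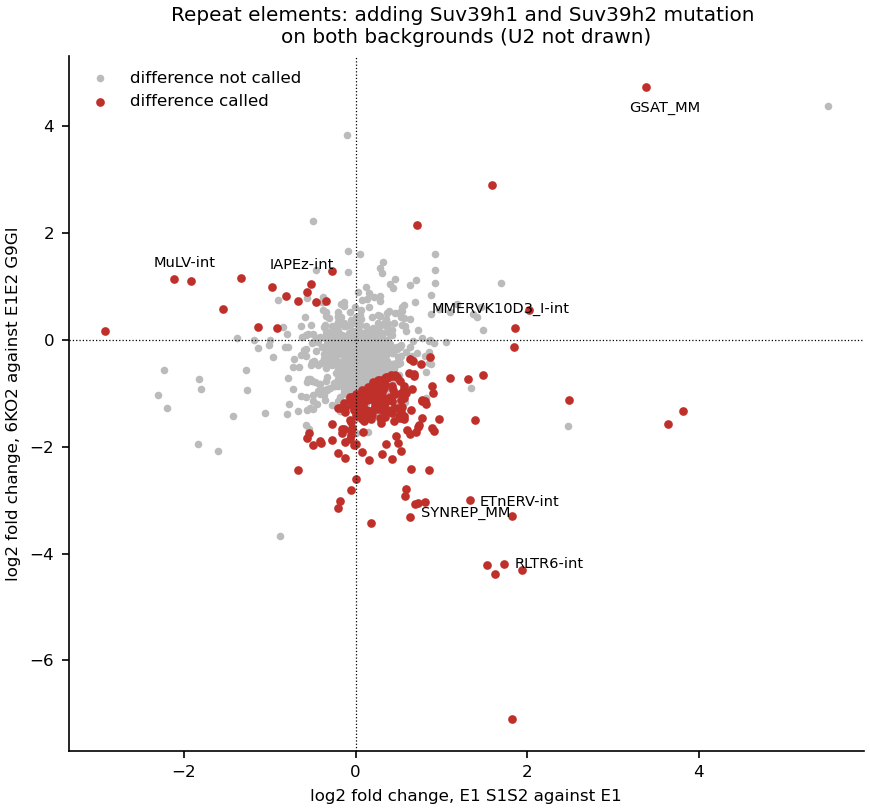
Log2 fold change of each repeat element (points) when Suv39h1 and Suv39h2 were mutated in E1 (horizontal axis) and in E1E2 G9Gl (vertical axis), with elements whose difference between the steps was called in red; U2 is not drawn. GSAT_MM lies high on both axes, RLTR6-int and ETnERV-int lie right of 0 and far below it, and MuLV-int lies left of 0 and above it.

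Among genes, interferon response genes parted most clearly. In E1 S1S2 22 of the 43 were called higher and 1 lower (median log2 change 1.11), and the difference of the steps was called lower for 34 and higher for 3. In means over 3 libraries, E1 had 28.4 and E1 S1S2 218 normalized counts of Oas3, while E1E2 G9Gl had 3533 and 6KO2 135. The p53 pathway moved the same way in both: 7 of 24 genes were called higher in E1 S1S2 and none lower, and 6 had a called difference, all toward a larger rise here. Cdkn1a rose by 2.06 there and by 2.13 here, and that difference, 0.07 (SE 0.0928, edgeR adjusted p = 0.56), was not called. Of the 17 zinc finger genes on chromosome 4, 9 were called higher in E1 S1S2, where Zfp978 reached a mean of 183 and Zfp979 one of 133, and for 12 the rise in 6KO2 was called larger.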

How the data were processed

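RNA-seq libraries of 24 samples (8 conditions, 3 each) were read from tables of counts per gene and per repeat element. Per the labels and the study's methods, the authors made these deposited counts from TruSeq stranded total RNA by trimming with cutadapt 1.8.1, alignment with STAR 2.5.2b to GRCm38 and counting with TEtranscripts; counts are not normalized. How reads matching several copies were divided, and whether counting used strand, is not given in the sources used here. One malformed entry (up to 0.00271% of a library's counts) was left out.

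Genes, elements and families were fitted over all 24 libraries in edgeR 4.0.16 (R 4.3.3, limma 3.58.1; quasi-likelihood test, filterByExpr, TMM factors from genes, 1 coefficient per condition), and p-values were adjusted by Benjamini-Hochberg. Calls needed a log2 change of at least 1 either way and an adjusted p of at most 0.01. The difference between this step and the step from E1 to E1 S1S2 was a contrast of the same fit. Scripts were tested on simulated data. Alternatives were DESeq2 1.42.0, other factors and filters, a replicate block and leaving out each library. Counts of each library bound its precision by counting error only.

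Named genes were the targeted, Hmga and HP1 genes; among called genes with no overlap, a mean of at least 200 normalized counts in the higher condition and a full gene symbol, the 15 largest rises and 15 largest falls; up to 10 switched genes each way; and the 2 largest rises and falls of each list. Elements were the satellites, 8 rises, 8 falls and a set of well-known retrotransposons. Other list members were named for their role, after their values were seen. Leaving out E2 replicate 2 and E1E2 replicate 2, or U2 and MER34B-int, was likewise chosen after seeing the data. Members and lists were chosen with earlier results of these data known, and the chemokine and MHC class I lists and the limits of the chromosome 4 cluster were set after the values were seen. Replicates of 6KO2 and of E1E2 G9Gl differed by more than sampling noise. The other conditions were not checked in this way. Other comparisons among the lines are not reported here. Some members of the lists are not reported here.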

Additional observations from a re-analysis of the deposited data

Results flagged for a closer look

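Results are given here where the change from E1E2 G9Gl to 6KO2 differed from the change from E1 to E1 S1S2, by the contrast of both steps in edgeR. Values are differences of log2 changes, positive where the step to 6KO2 lay higher. Each group has 3 libraries, so single libraries were not screened for lying apart. The difference was called higher for 1432 genes and lower for 1627, and for 19 elements higher and 231 lower.

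Among satellites, GSAT_MM differed by 1.34 and SYNREP_MM by -3.95. U2 differed by 7.84 and the snRNA family that holds it by 2.52; U2 was also high in a single library each of E2 and E1E2, which stand outside both steps. Among LTR elements with a higher difference were MuLV-int (3.24), RLTR45-int (2.47), IAPLTR1a_Mm (1.95), IAPEz-int (1.57) and MMERVK10D3_LTR (1.30), and the LINE fragment L1MdA_II_5end_ORF1only had 1.43. The differences of RLTR6B_Mm (-6.24), MURVY-int (-6.00), RLTR6-int (-5.93), ETnERV-int (-4.33), LTRIS5 (-3.84), RLTR48B (-3.77), ERVB3_1-I_MM (-3.60), RLTR44E (-2.84), MMERVK10D3_I-int (-1.64), MMERVK10C-int (-1.28) and RLTR10C (-1.17) were lower.

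Zinc finger genes of chromosome 4 had higher differences: Zfp980 8.62, Zfp979 7.67, Zfp600 7.25, Rex2 7.18, Zfp988 7.01, Zfp985 6.38, Zfp534 6.28 and Zfp978 6.20. So did Ces1g (11.61), Angptl7 (6.83), Grem1 (6.38), Hmga2 (2.87) and Hmga1 (1.65). Lower differences were found for Mlana (-13.73), Ms4a4d (-10.45), H2-Bl (-10.32), Ifi27l2a (-8.93), Akr1c21 (-7.90), Adra1d (-7.88), Col28a1 (-7.07), Nup210 (-6.81), Lpl (-6.27) and Pnma5 (-4.73). Several of these gene differences rest on counts near 0, so that their size is uncertain. The means in E1 and E1 S1S2 were 0 and 3.9 for Mlana, 0 and 1.8 for Ms4a4d, and 0.7 and 0 for Ces1g. Zfp980 and Rex2 had 0 counts in the parent, and their lower bounds for the step itself were 6.63 and 6.15 on the log2 scale. By list, the difference was called for 3 interferon response genes higher and 34 lower, for 6 p53 pathway genes higher, and for 2 nucleic acid sensor genes higher and 7 lower.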

How the results depend on the processing

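Scaling by factors from repeat counts alone, which moved the median of all elements from -0.47 to 0.04, changed most. It turned the class log2 ratios of LTR (0.03), SINE (0.35) and DNA elements (0.15), moved LINE to -0.22 and satellites to 1.57, turned IMPB_01 (0.07), ZP3AR (0.45), MT2_Mm (0.11) and the ERVK (0.19) and Alu (0.24) families, and gave 55 elements higher and 66 lower, or 62 and 79 for the difference of the steps. RLE factors turned the median of chromosome 7 from 0.01 to -0.01. With no minimum fold, 3962 genes were higher and 4141 lower, and 45 elements higher and 619 lower. Above a mean of 100 normalized counts, 427 genes were higher and 600 lower, 113 elements were lower, and MHC class I gave 0 higher and 10 lower. Without the largest element over all libraries, the LTR ratio was -0.59 and that of satellites 0.95; without the largest in the 6 libraries compared, chosen after seeing the data, they were -0.01 and 0.95. Without the largest element of each family, 1 family was higher and 2 lower.

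Leaving out 1 library gave 1232 to 1336 genes higher and 1617 to 1687 lower, 19 to 22 elements higher and 187 to 208 lower, and 2 families higher and 1 to 2 lower. The difference of the steps ranged over 1303 to 1480 genes higher and 1541 to 1636 lower, and 19 to 23 elements higher and 197 to 265 lower. Replicate numbers did not pair the libraries (correlations of same-numbered deviations from -0.06 to 0.083), and a fit with the replicate number as a block gave 1315 and 1687 genes and 21 and 202 elements.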
